A study of Sus scrofa with 32 samples.

Results

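Ubiquitin is attached to a protein by a chain of enzymes, and the proteasome then degrades the tagged protein. An activating enzyme (E1) loads ubiquitin onto a conjugating enzyme (E2), and a ligase (E3) brings the E2 to its substrate. F-box proteins are the substrate receptors of one large group of E3 ligases, those built on a cullin, whereas most tripartite motif (TRIM) proteins are E3 ligases by themselves. In skeletal muscle this route breaks down the proteins of the sarcomere during fasting and disuse, and the ligases FBXO32 (atrogin-1) and TRIM63 (MuRF1) are its best known muscle members. The genes described here were the table entries whose symbol began with PSMA, PSMB, PSMC, PSMD, PSME, UBE2, FBXO, FBXL, FBXW or TRIM, without UBE2J1. The rule found 127 of 25322 gene IDs, 11804 of which had a symbol. They were 28 proteasome genes, 17 E2 genes, 43 F-box genes and 39 TRIM genes.

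The RNA came from a loin muscle, longissimus dorsi (LD), and a ham muscle, semimembranosus (S), and both were taken from every one of 16 female pigs. Of these, 8 belonged to Pulawska (PUL), a native breed of Poland that is kept under conservation, and 8 to Polish Landrace (PL), a white breed of high meat content, which made 4 groups of 8 libraries. The labels give an age of 180 days for every pig, whereas the study's methods set slaughter by body weight, so the true ages may have varied. The study reports a higher daily gain in PL, so PUL pigs may have been older at slaughter. Age and breed cannot be told apart here. All pigs were kept in the same conditions and fasted before slaughter, and no group received a treatment. The study asked which genes differ between breeds of unlike fat and meat quality, and the design also allows LD to be compared with S.

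The libraries held 8821259 to 24761846 counts, and the values below are in CPM, that is counts scaled to a common library size after correction by TMM factors of 0.685 to 1.504. The 2 of 10 skeletal muscle markers that had an entry, ACTA1 and TNNT1, summed to between 30482 and 153647 CPM in the 32 libraries, and the other 8 markers of that list had no gene ID paired with their symbol. Marker lists of other cells also differed between libraries. The 18 measured hepatocyte genes had sums of 29.7 to 1631 CPM over the 10 libraries from PUL pigs 1 to 5, and of 10.03 to 69.8 CPM over the remaining 22. The 3 measured red blood cell genes had medians of 140.0 CPM in LD and 67.5 CPM in S of PUL against 379.8 CPM in LD and 355 CPM in S of PL, and the 5 measured smooth muscle genes had 5850.4 and 6922 CPM in PUL against 5273 and 4426 CPM in PL. Of the 6 genes of the smooth muscle list 5 were measured, but a sum can be carried by a few of them at high levels. The smooth muscle sums are therefore not read as a difference in smooth muscle. The S library of PUL pig 2 had the highest sum, 13162 CPM. Its mean log2 level over the 5 genes was 5.36, where the libraries ran from 5.29 to 6.58. The 7 measured fibroblast genes had medians of 486 CPM in LD and 955 CPM in S of PUL against 1259 CPM in LD and 2021 CPM in S of PL. Their part in the breed differences was not tested, apart from the fits with a hepatocyte covariate and without PUL pigs 1 to 5. Levels of different genes are not set against each other, because gene lengths were not used here.

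A filter on low counts left 93 of the 127 genes in LD, 92 in S and 95 in the fits over both muscles. Among those not tested, PSMA8, PSMB11, TRIM67, TRIM77 and TRIML2 had no count in any library. Of the 127 genes, the text names 38 tested ones by a rule and a few more after their values were seen, namely FBXO31, PSMC5, PSMD1, UBE2G2 and those with fractional counts listed next. The counting program divides reads that match several genes, which leaves fractional counts. Of the 95 tested genes, 72 had whole counts (within 0.001) in all libraries and 11 had fractional counts in more than 16 libraries, namely FBXL6, PSMB9, PSMC2, PSMC3, PSMC5, PSMD5, PSME1, PSME2, TRIM2, TRIM23 and UBE2E1, whose values are less certain for that reason. The library kit does not mark strand, so reads of overlapping genes cannot be told apart.

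None of the genes passed the threshold (adjusted p at or under 0.05 and a fold change of at least 1.3) in any comparison with edgeR's quasi-likelihood test. Between the breeds, 0 of 93 genes were called in LD and 0 of 92 in S, against 0.0% of all 10792 genes tested in LD and 0.0% of all 10687 in S. Between S and LD, 0 of 95 genes were called within PUL, against 0.0259% of all 11563 genes, and 0 of 95 within PL, against 0.0% of all genes. In the test of whether the muscle difference itself differed between the breeds, 0 of 95 genes were called, against 0.0%. The counts at an unadjusted p under 0.05 were 2 genes in LD and 7 in S for the breeds, against 7.15% and 11.7% of all genes. They were 5 genes within PUL and 2 within PL for the muscles, against 6.56% and 2.29% of all genes, and 1 gene for the difference of differences, against 2.54%. DESeq2 and limma voom also called 0 of these genes in the 5 comparisons, and edgeR's exact test, run between the breeds, called 0 in both muscles, while DESeq2 called 19 of all genes in LD and 103 in S.

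**Figure D1:**
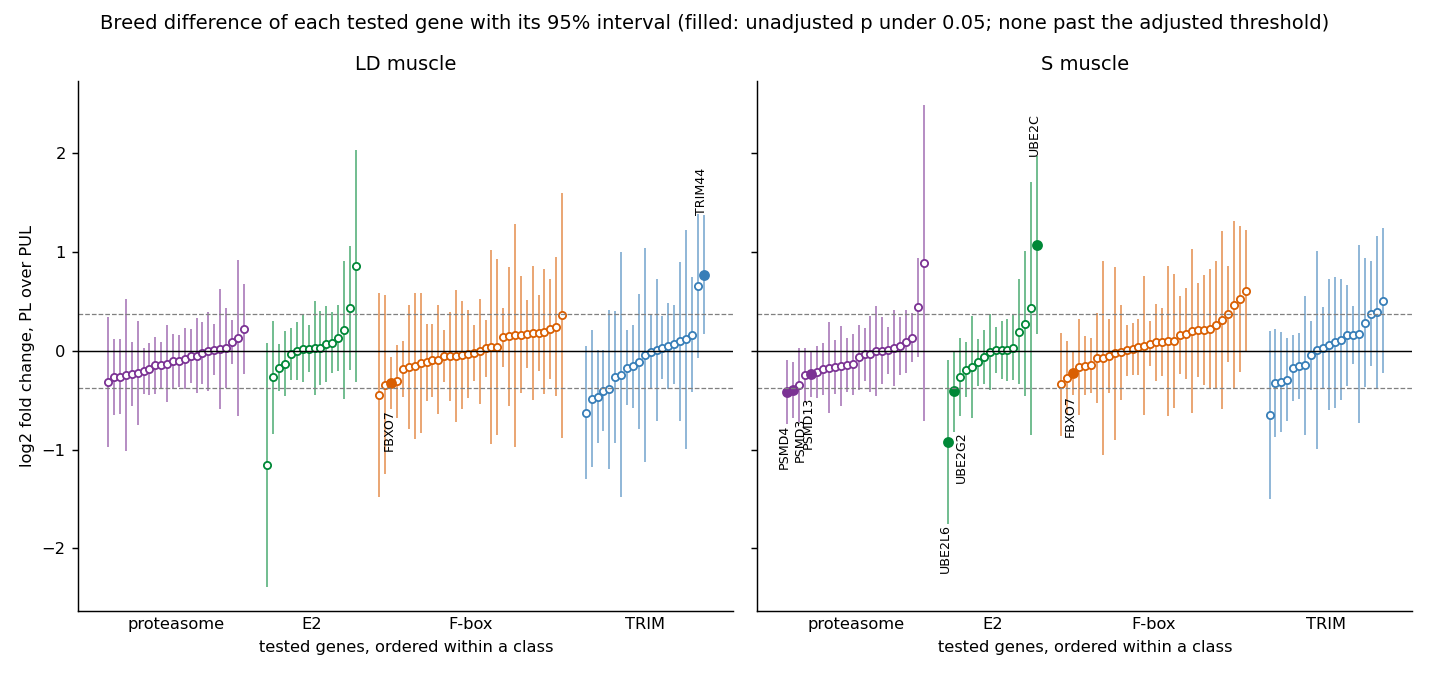
The vertical axis gives the log2 fold change of PL over PUL in LD (left) and in S (right) for every tested gene, ordered within its class along the horizontal axis. Circles are estimates, vertical lines are 95% intervals, dashed lines mark a fold change of 1.3, and filled circles have an unadjusted p under 0.05. Most circles sit within the dashed lines, and 6 of the 7 filled circles in S lie below 0, UBE2C being the exception. Over all genes tested in S, 11.7% had such a p, and 677 of those 1252 were lower in PL.

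How large a breed difference the data still allow depended on the class. In LD, the 95% interval of the fold change stayed within 1.5-fold in either direction for 16 of 24 proteasome genes, 11 of 16 E2 genes, 12 of 32 F-box genes and 6 of 21 TRIM genes. In S, the numbers were 18 of 24, 8 of 16, 13 of 32 and 5 of 20. Within 2-fold lay 23 of 24 proteasome genes in both muscles, and the exceptions were PSMD1 in LD and PSMB9 in S. For the muscle difference within PL, 22 of 24 proteasome genes had an interval within 1.5-fold. Of the TRIM genes, 13 of 21 in LD and 15 of 20 in S had an interval within 2-fold, so that for 8 and 5 of them a 2-fold difference in at least one direction lay inside the interval.

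The proteasome is a barrel, the 20S core, whose ends carry a 19S cap that recognises, unfolds and feeds in tagged proteins. The 27 genes of its core, caps and activators with an entry summed to 2879.9 ± 394 CPM (SD, n = 8) in LD of PUL, 2613 ± 271 in LD of PL, 3009.8 ± 339 in S of PUL and 2633 ± 221 in S of PL. The sums of single libraries ran from 2438 to 3383 CPM in LD of PUL and from 2257 to 2954 in LD of PL, and from 2505 to 3451 in S of PUL and 2281 to 3043 in S of PL, so the breeds overlapped in both muscles. In bulk muscle, fewer cells of a type and less RNA per cell cannot be told apart. PSMC3IP, which carries a proteasome prefix but encodes a recombination factor, was left out of the sums.

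**Figure D2:**
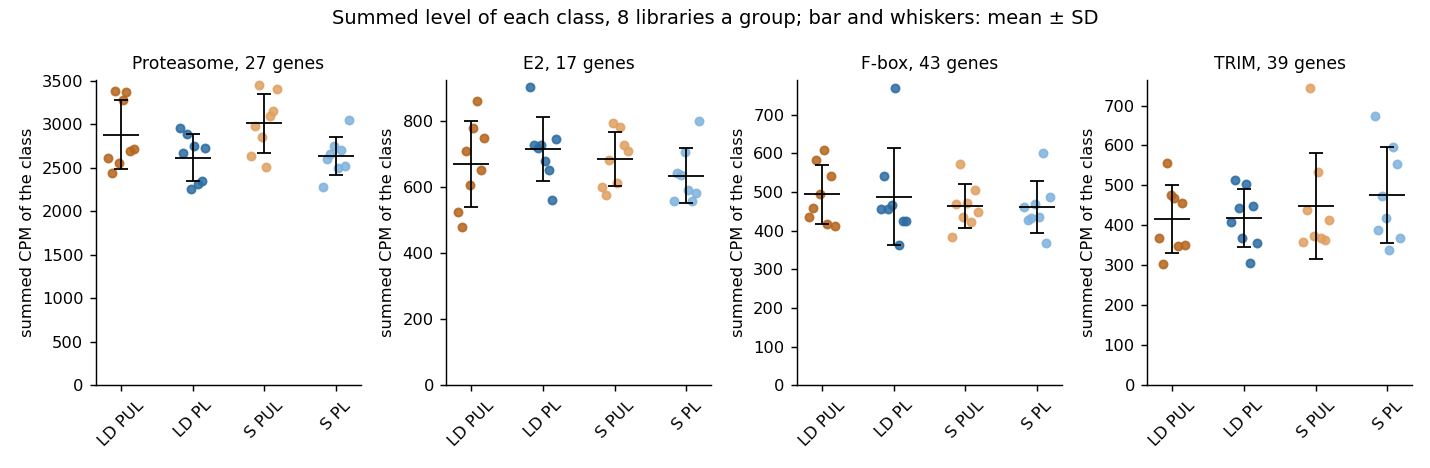
Each panel gives the summed CPM of 1 class (vertical axis, from 0) in the 4 groups (horizontal axis), with a point for each of the 8 libraries of a group and the mean ± SD in black. The proteasome sums had means of 2880 and 3010 CPM in PUL and 2613 and 2633 CPM in PL, and the libraries of the breeds overlapped in every panel.

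Most proteasome genes had a lower estimate in PL. In LD, 18 of 24 did, with a median log2 fold change of -0.10, and over all genes tested 49.2% did, with a median of 0.01. In S, 16 of 24 did, with a median of -0.10, and over all genes 47.4% did, with a median of 0.02. The same pigs gave both muscles, so the agreement of LD and S is not an independent repeat. Scaling by library size alone moved the median of the genes with a symbol from -0.0027 to -0.18 in LD and from 0.027 to 0.079 in S, and then 23 of 24 proteasome genes were lower in PL in LD and 13 of 24 in S. Without PUL pigs 1 to 5, 15 of 24 were lower in LD and 13 of 24 in S, and the median log2 fold changes were -0.078 and -0.070. Under each alternative tried, the median of the 24 genes stayed below 0 in both breed comparisons.

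The core genes PSMA1 and PSMA5 encode subunits of the outer rings, and PSMB7 encodes the subunit with trypsin-like activity. PSMA5 in LD ranged from 82.1 to 128 CPM (median 92.6) in PUL and from 69.2 to 101 CPM (median 80.6) in PL. The breeds overlapped, with 4 of 8 PL libraries under every PUL library, and the log2 fold change was -0.20 ± 0.11 (SE; adjusted p = 0.740). PSMA1 in LD was 94.1 ± 13.3 CPM in PUL and 84.0 ± 5.76 in PL, and in S it was 95.04 ± 12.7 and 85.1 ± 15.2. PSMB7 in LD was 199 ± 28.6 CPM in PUL and 199 ± 30.4 in PL, and the fold change had a 95% interval of 0.842 to 1.21. In S of PUL, PSMB7 ranged from 170.4 to 293 CPM (median 229), above LD of the same pig in 7 of 8 pigs, and the log2 fold change of S over LD was 0.24 ± 0.10 (adjusted p = 0.716). In PL the muscle difference of PSMB7 was 0.01 ± 0.10.

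The 19S cap is made of a ring of ATPases (PSMC), which unfold the substrate, and of PSMD subunits, which receive and deubiquitinate it. The 5 ATPase genes summed to 1025 ± 218 CPM in LD and 1078 ± 180.3 in S of PUL, and to 943 ± 150.3 and 949.9 ± 140.2 in PL. PSMC2 in LD was 183 ± 69.3 CPM in PUL and 156 ± 50.6 in PL, and in S it was 159 ± 36.3 and 157 ± 31.8. In S its fold change between the breeds had a 95% interval of 0.791 to 1.27. PSMC5 in S ranged from 179.6 to 447 CPM (median 344) in PUL and from 189 to 366 CPM (median 259) in PL, with 3 PUL libraries above every PL library and 1 below, and a log2 fold change of -0.34 ± 0.18 (adjusted p = 0.457). PSMC6 was the ATPase gene with the smallest p for the difference of the muscle differences, which was 0.29 ± 0.15 on the log2 scale (adjusted p = 1.0).

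In S, 3 of 24 proteasome genes, all of them PSMD genes, had an unadjusted p under 0.05 between the breeds, all with lower estimates in PL. Over all genes tested in S, 11.7% had such a p, and 677 of those 1252 genes had lower estimates in PL. The count of 3 is thus near the share of all genes. PSMD3, a scaffold subunit of the lid, ranged from 123 to 218 CPM (median 205) in S of PUL and from 110.2 to 176 CPM (median 138) in S of PL. PSMD4, the main ubiquitin receptor of the cap, ranged from 153 to 320.1 CPM (median 251) in PUL and from 146 to 237 CPM (median 169.6) in PL. PSMD13, another lid subunit, ranged from 156 to 246 CPM (median 208) in PUL and from 149.7 to 195 CPM (median 174) in PL. For each of the 3 genes, 6 of 8 PUL libraries were above every PL library, while the lowest PUL library lay inside the PL range. The log2 fold changes were -0.40 ± 0.14 for PSMD3, -0.42 ± 0.16 for PSMD4 and -0.24 ± 0.11 for PSMD13, with 95% intervals of the fold change of 0.625 to 0.926, 0.597 to 0.938 and 0.725 to 0.992. Their adjusted p values were 0.292, 0.330 and 0.406, so none passed the threshold. The lowest adjusted p of a gene described here, over all comparisons and alternatives, was that of PSMD3 in S with the hepatocyte level as a covariate, at a log2 fold change of -0.58 with an adjusted p of 0.0885. That level, on a centred log2 scale, ran in S from -0.955 to -0.602 in PL and from 0.082 to 4.41 in PUL pigs 1 to 5. The covariate thus partly follows breed, which limits this fit. In LD the same 3 genes had log2 fold changes of -0.26 ± 0.18, -0.26 ± 0.18 and -0.18 ± 0.13, with adjusted p values of 0.826, 0.835 and 0.827.

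PSMD5, a chaperone of cap assembly and not a part of the finished particle, ranged from 1.74 to 3.92 CPM (median 2.74) in S of PUL and from 1.43 to 4.37 CPM (median 3.79) in S of PL. Its estimate was higher in PL, with 4 PL libraries above every PUL library and 1 below, and the log2 fold change was 0.44 ± 0.24 (adjusted p = 0.470). Within PUL it was higher in S than in LD in only 2 of 8 pigs, with a log2 fold change of -0.50 ± 0.22 (adjusted p = 0.716). PSMD11, whose level can limit how many capped proteasomes form, ranged from 20.5 to 81.4 CPM (median 32.7) in LD of PUL and from 18.1 to 74.2 CPM (median 28.4) in LD of PL, and the breeds overlapped. PSMD1, the largest subunit of the cap, ranged from 6.58 to 29.1 CPM (median 16.6) in LD of PUL and from 4.83 to 28.6 CPM (median 12.96) in LD of PL.

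The activators cap the core in place of the 19S particle. The 4 genes summed to 224 ± 33.7 and 219.7 ± 16.7 CPM in LD and to 245 ± 30.7 and 229 ± 41.9 CPM in S of PUL and PL, respectively. PSME4, which encodes PA200, was 139 ± 31.0 CPM in LD of PUL and 130.5 ± 19.1 in LD of PL, and PSME3, which encodes PA28 gamma, was 13.8 ± 2.84 and 13.5 ± 2.63. The fold change of PSME3 between the breeds had 95% intervals of 0.793 to 1.23 in LD and 0.748 to 1.28 in S. PSME1 and PSME2, which form the interferon-induced PA28 ring, had log2 fold changes of 0.22 ± 0.22 and 0.03 ± 0.19 in LD and 0.03 ± 0.18 and -0.06 ± 0.16 in S. For S over LD, PSME1 had log2 fold changes of 0.35 ± 0.19 in PUL and 0.17 ± 0.19 in PL, and those of the other 3 genes were at most 0.11. Scaling by library size alone moved the median of the genes with a symbol from -0.019 to -0.14 in PUL and from 0.0016 to 0.12 in PL. Under that scaling the values of PSME2, PSME3 and PSME4 in PUL turned below 0, whereas PSME1 stayed above 0 in both breeds under every alternative tried.

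In the immunoproteasome, interferon-induced subunits replace the catalytic subunits of the core. Of these, PSMB8 and PSMB9 were at or near the limit of detection, and PSMB10 had no paired ID. Every library with counts of PSMB8 or PSMB9 had fractional ones, so their reads were divided with other entries. The low values thus do not show how much immunoproteasome RNA was present. PSMB8 had no count in 31 of 32 libraries, and the remaining library, LD of PUL pig 16, had 0.721 CPM, from 10 counts. PSMB9 ranged from 0.772 to 3.40 CPM (median 1.97) in LD of PUL, 0.638 to 4.13 (median 1.88) in LD of PL, 0 to 4.63 (median 0.858) in S of PUL and 0 to 5.25 (median 1.63) in S of PL. The groups overlapped, and the 95% interval of the fold change between the breeds in S was 0.611 to 5.62, too wide to tell the breeds apart. The highest PSMB9 value in S of PUL was that of pig 5.

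The 17 E2 genes summed to 671 ± 130.3 and 715 ± 97.1 CPM in LD and to 687 ± 82.4 and 635 ± 83.8 CPM in S of PUL and PL, respectively. In LD, 6 of 16 tested genes had a lower estimate in PL and in S 8 of 16, with median log2 fold changes of 0.03 and -0.0030. UBE2L6, the E2 that passes the interferon-induced modifier ISG15 to its targets, ranged from 6.56 to 32.4 CPM (median 11.8) in LD of PUL, 6.97 to 13.9 (median 10.95) in LD of PL, 10.3 to 75.1 (median 12.8) in S of PUL and 6.83 to 14.3 (median 10.7) in S of PL. Both high values, 32.4 CPM in LD and 75.1 CPM in S, were from PUL pig 5, and no other library was above 16.3 CPM. The 10 measured genes of the interferon response list, which does not hold UBE2L6, summed to 240 CPM in LD and 483 CPM in S of this pig and to between 46.7 and 94.7 CPM in the other 30 libraries. The log2 fold change between the breeds in S was -0.93 ± 0.39 (adjusted p = 0.384). Without PUL pig 5 it was -0.21 in S, and in LD it went from -0.27 to 0.05. The S library of pig 5 also had the largest hepatocyte sum of the series, 1631 CPM, and the share of each list in the UBE2L6 value was not tested.

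**Figure D3:**
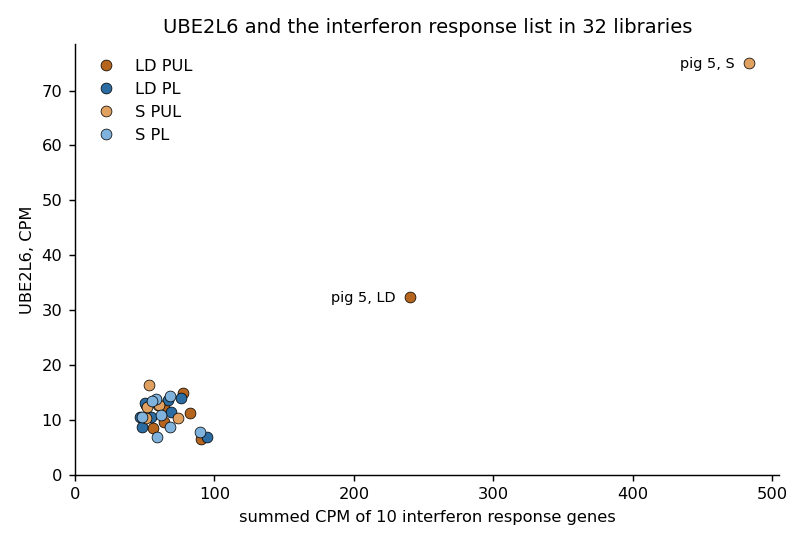
The horizontal axis gives the summed CPM of the 10 measured interferon response genes and the vertical axis the CPM of UBE2L6, with a point for each of the 32 libraries, coloured by group. The LD and S libraries of PUL pig 5 lie at 32.4 and 75.1 CPM of UBE2L6, and the other 30 libraries lie at or below 16.3 CPM of UBE2L6 and 94.7 CPM of the summed genes.

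UBE2C, the E2 of the anaphase-promoting complex and thus a gene of dividing cells, was near the detection limit. In S it ranged from 0.162 to 1.67 CPM (median 0.627) in PUL and from 0.0869 to 2.24 CPM (median 1.53) in PL. Only 3 PL libraries were above every PUL library and 1 PL library was below all of them, and the log2 fold change was 1.08 ± 0.43 (adjusted p = 0.365). In LD its log2 fold change was 0.86 ± 0.56. UBE2T, which serves DNA crosslink repair, did not pass the filter and had at most 0.340 CPM in any library.

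UBE2D4, a member of the E2 family that works with many ligases, was the gene with the smallest p for a muscle difference that differed between the breeds. In LD it ranged from 27.1 to 225 CPM (median 165) in PUL and 114 to 308 (median 196) in PL, and in S from 60.9 to 236 CPM (median 175) in PUL and 101 to 237 (median 127) in PL. S was above LD in 6 of 8 PUL pigs and in 1 of 8 PL pigs. The log2 fold change of S over LD was 0.22 ± 0.20 in PUL and -0.50 ± 0.20 in PL, and their difference was -0.71 ± 0.28 (adjusted p = 1.0). UBE2J2, an E2 of the endoplasmic reticulum, had log2 fold changes of S over LD of 0.10 ± 0.16 in PUL and -0.29 ± 0.16 in PL. UBE2G2, which also serves the endoplasmic reticulum, ranged from 7.26 to 14.8 CPM (median 12.3) in S of PUL and from 4.98 to 11.3 CPM (median 8.04) in S of PL, with a log2 fold change of -0.41 ± 0.19 (adjusted p = 0.423).

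The 43 F-box genes summed to 494 ± 76.6 and 488 ± 124 CPM in LD and to 463 ± 56.7 and 460.3 ± 67.1 CPM in S of PUL and PL, respectively. Of 32 tested genes, 18 had a lower estimate in PL in LD and 11 in S, with median log2 fold changes of -0.02 and 0.08. FBXO7, an F-box protein that acts in the clearance of damaged mitochondria, had the smallest p of the F-box genes for the breed difference in both muscles. In LD it ranged from 15.2 to 22.8 CPM (median 18.5) in PUL and from 11.6 to 18.95 CPM (median 14.1) in PL, and in S from 14.8 to 18.5 CPM (median 16.4) in PUL and from 12.5 to 16.0 CPM (median 13.6) in PL. In both muscles 5 of 8 PL libraries were below every PUL library, and the ranges overlapped. The log2 fold change was -0.33 ± 0.12 in LD and -0.22 ± 0.11 in S, with 95% intervals of the fold change of 0.664 to 0.955 and 0.735 to 0.998 and adjusted p values of 0.555 and 0.422. Its level varied little within a group, with a mean coefficient of variation (CV) over the 4 groups of 0.118, lower than that of all but 1.23% of the genes with a mean of at least 10 CPM. Over all alternatives tried, its adjusted p stayed at or above 0.249 in LD and 0.246 in S.

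FBXO32, the atrogin-1 ligase, ranged from 1.96 to 16.6 CPM (median 7.80) in LD of PUL and 2.76 to 15.6 (median 5.44) in LD of PL, and from 3.84 to 31.1 CPM (median 8.05) in S of PUL and 4.26 to 23.7 (median 9.46) in S of PL. The groups overlapped, with libraries of a group differing by 5.56-fold to 8.47-fold. The log2 fold change between the breeds was -0.34 ± 0.43 in LD and -0.02 ± 0.42 in S, and the 95% intervals of the fold change were 0.420 to 1.48 and 0.537 to 1.80. S was above LD in 5 of 8 pigs of each breed, with log2 fold changes of 0.47 ± 0.36 in PUL and 0.78 ± 0.38 in PL (adjusted p = 0.873 and 1.0). FBXO30, a ligase induced in denervated muscle, was 18.96 ± 5.24 and 17.3 ± 3.77 CPM in LD and 17.3 ± 4.55 and 19.4 ± 7.61 CPM in S of PUL and PL. FBXO21, another ligase linked to muscle atrophy, was 26.6 ± 5.63 and 23.2 ± 2.77 CPM in LD and 24.5 ± 4.61 and 24.7 ± 3.03 CPM in S, and its 95% interval between the breeds in S was 0.845 to 1.22.

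FBXL4, which restrains the removal of mitochondria, ranged from 18.96 to 47.6 CPM (median 27.6) in LD and from 11.8 to 32.6 CPM (median 20.2) in S of PUL. S was above LD in only 1 of 8 PUL pigs and the log2 fold change of S over LD was -0.51 ± 0.20 (adjusted p = 0.659). In PL, S was above LD in 3 of 8 pigs, the log2 fold change was -0.25 ± 0.20, and the difference between the breeds was 0.25 ± 0.28 (adjusted p = 1.0). FBXW9, a little studied substrate receptor, ranged from 1.13 to 2.56 CPM (median 1.40) in LD and 1.71 to 2.62 (median 2.08) in S of PL. S was above LD in 7 of 8 PL pigs, with a log2 fold change of 0.41 ± 0.19 (adjusted p = 1.0), and in 4 of 8 PUL pigs, with -0.11 ± 0.19.

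The 39 TRIM genes summed to 416 ± 85.2 and 418 ± 72.6 CPM in LD and to 449 ± 132 and 477 ± 119.9 CPM in S of PUL and PL, respectively. In LD 12 of 21 tested genes and in S 8 of 20 had a lower estimate in PL, with median log2 fold changes of -0.04 and 0.05. TRIM63, the MuRF1 ligase of thick filament proteins, ranged from 128 to 355 CPM (median 207) in LD of PUL and 130.4 to 270.2 (median 227) in LD of PL, and from 169 to 522 CPM (median 211) in S of PUL and 181 to 457 (median 255) in S of PL. The groups overlapped, and within S of PUL the highest value, that of pig 3, was followed by 330.5 CPM in pig 5. The log2 fold change between the breeds was 0.05 ± 0.21 in LD and 0.16 ± 0.25 in S, with 95% intervals of the fold change of 0.767 to 1.40 and 0.780 to 1.59. S was above LD in 6 of 8 pigs of each breed, with log2 fold changes of 0.23 ± 0.19 in PUL and 0.32 ± 0.19 in PL (adjusted p = 0.881 and 1.0).

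**Figure D4:**
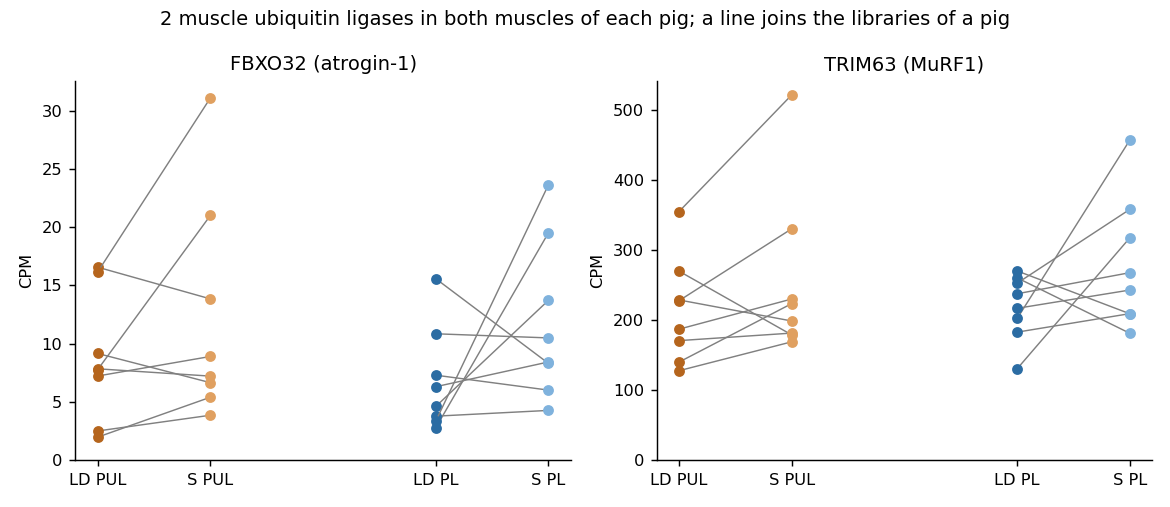
The vertical axis gives CPM, from 0, of FBXO32 (left panel) and TRIM63 (right panel) in LD and S, with PUL at the left and PL at the right of each panel. A point is a library and a line joins both muscles of a pig. The breeds overlap, and lines go both up and down, with S above LD in 5 of 8 pigs of each breed for FBXO32 and in 6 of 8 for TRIM63.

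FBXO32 and TRIM63 rise together in wasting muscle, and their levels on the log2(CPM + 0.5) scale were compared across the 16 pigs, as 4 relations in all. In LD, Pearson's r was 0.16 (permutation p = 0.564, adjusted p = 0.564) and Spearman's rho was 0.16 (permutation p = 0.562, adjusted p = 0.571). In S, r was 0.46 (permutation p = 0.0721, adjusted p = 0.288) and rho was 0.33 (permutation p = 0.215, adjusted p = 0.430). Without the 2 pigs farthest from the median of FBXO32, r was 0.19 in LD and 0.10 in S, so the value in S rested on those pigs. Within PUL and within PL, r was 0.06 and 0.38 in LD and 0.40 and 0.56 in S. The level in LD was also set against that in S of the same pig. For FBXO32, r was 0.30 (permutation p = 0.259, adjusted p = 0.345) and rho was 0.34 (permutation p = 0.205), and r was 0.03 without the 2 farthest pigs. For TRIM63, r was 0.32 (permutation p = 0.226, adjusted p = 0.345) and rho was 0.15 (permutation p = 0.571), and r was 0.36 without the 2 farthest pigs. Within PUL, r was 0.76 for FBXO32 and 0.66 for TRIM63, and within PL it was -0.40 and -0.31, and the difference between the breeds was not tested. None of the 4 relations passed the adjustment.

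TRIM55 (MuRF2), a relative of TRIM63 that binds titin, was 44.3 ± 14.2 and 43.6 ± 6.68 CPM in LD and 42.2 ± 7.15 and 46.7 ± 9.13 CPM in S of PUL and PL. Its fold change had 95% intervals of 0.768 to 1.29 between the breeds in LD, 0.912 to 1.37 in S, 0.825 to 1.18 between the muscles in PUL and 0.888 to 1.27 in PL. A 1.5-fold difference thus lay outside all 4 intervals. TRIM32, a ligase mutated in a limb-girdle muscular dystrophy, was 8.87 ± 1.76 and 7.90 ± 2.82 CPM in LD and 7.82 ± 1.47 and 6.97 ± 1.53 CPM in S, with log2 fold changes between the breeds of -0.15 ± 0.20 in LD and -0.15 ± 0.16 in S.

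TRIM44, which lacks a RING domain and carries a deubiquitinase-like zinc finger, had the smallest p of these genes in LD. It ranged from 1.26 to 4.37 CPM (median 2.87) in PUL and from 2.49 to 9.96 CPM (median 4.12) in PL. Only 3 PL libraries were above every PUL library and 2 PUL libraries were below every PL library, and the log2 fold change was 0.77 ± 0.29 (95% interval of the fold change 1.12 to 2.59, adjusted p = 0.555). In S the log2 fold change was 0.38 ± 0.26 (adjusted p = 0.555). TRIM13, a ligase of the endoplasmic reticulum, and TRIM26, a ligase of the antiviral response, had log2 fold changes of -0.46 ± 0.23 and -0.40 ± 0.19 in LD and of -0.29 ± 0.20 and -0.31 ± 0.24 in S, and none passed the threshold. The direction of TRIM13 turned in both muscles with the hepatocyte covariate, to 0.079 in LD and 0.073 in S, and without PUL pigs 1 to 5, to 0.13 and 0.32.

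TRIM47, a ligase also known from endothelial and tumour cells, had the smallest p for the muscle difference within PUL. It ranged from 2.59 to 13.7 CPM (median 5.75) in LD and from 5.23 to 26.1 CPM (median 12.7) in S of PUL, and from 4.57 to 26.8 CPM (median 9.46) in LD and 6.68 to 24.2 CPM (median 12.6) in S of PL. S was above LD in 7 of 8 pigs of each breed. The log2 fold change of S over LD was 0.79 ± 0.26 in PUL (adjusted p = 0.501) and 0.38 ± 0.27 in PL (adjusted p = 1.0), and the breeds' values differed by -0.41 ± 0.37 (adjusted p = 1.0). The PL pig in which LD was higher was pig 14, with 26.8 CPM in LD and 6.78 CPM in S, and without it the log2 fold change in PL was 0.67 (adjusted p = 0.371). With DESeq2 the adjusted p in PUL was 0.185.

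Of the TRIM genes of the interferon and antiviral response, TRIM21, TRIM34 and TRIM25 had low counts, whereas TRIM26, described above, had 2980 counts in total. TRIM21, a cytosolic antibody receptor, ranged from 0.509 to 4.03 CPM over all libraries, TRIM34 from 0.339 to 4.95 CPM, and both highest values were in S of PUL pig 5. TRIM25, a ligase of the RIG-I pathway, did not pass the filter and had at most 0.381 CPM. TRIM23, a ligase with a GTPase domain, had the smallest p of the TRIM genes for the difference of the muscle differences, which was 0.75 ± 0.52 (adjusted p = 1.0).

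The genes also differed in their spread between the 8 libraries of a group. Of the genes with a mean of at least 10 CPM, the 22 proteasome genes had a median CV of 0.202, the 12 E2 genes 0.212, the 16 F-box genes 0.246 and the 7 TRIM genes 0.272, against 0.257 over all 5047 such genes. None of the 22 proteasome genes at that level had a CV above 0.5, and PSMB9, which was measured lower, is not among them. Such a CV was seen in 5 of 57 of the genes described here (8.77%), and in 10.24% of all genes. They were FBXO40 (0.784), TRIM72 (0.783), FBXO31 (0.776), UBE2L6 (0.542) and TRIM47 (0.525).

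TRIM72 (MG53) patches tears in the muscle cell membrane, and FBXO40 is a muscle F-box protein that targets the insulin receptor substrate. FBXO31 acts on cyclins after DNA damage, and UBE2O is a large enzyme with both E2 and ligase activity. TRIM72 ranged from 5.54 to 47.9 CPM (median 19.4) in LD of PUL, 5.78 to 52.7 (median 17.8) in LD of PL, 4.13 to 47.2 (median 22.3) in S of PUL and 7.31 to 83.7 (median 14.7) in S of PL. FBXO31 ranged from 5.54 to 69.3 CPM (median 17.1), 8.34 to 39.4 (median 16.5), 6.16 to 44.7 (median 22.1) and 7.55 to 79.9 (median 12.7) in the same order. FBXO40 ranged from 12.7 to 112 CPM (median 41.6), 14.5 to 229.8 (median 30.9), 11.9 to 77.5 (median 32.3) and 21.2 to 111 (median 34.1). The groups overlapped over nearly their whole ranges, and the highest library of a group was 4.72-fold to 15.9-fold above its lowest for these 3 genes. UBE2O ranged from 0.369 to 23.5 CPM (median 4.91), 1.28 to 7.34 (median 3.40), 0.697 to 9.43 (median 3.52) and 1.15 to 26.8 (median 2.84), and its log2 fold change between the breeds was -1.16 ± 0.59 in LD (adjusted p = 0.718) and 0.43 ± 0.61 in S (adjusted p = 0.795). In S the direction rested on PL pig 14, since the value was -0.71 without that pig, and it was also below 0 with DESeq2 (-0.69) and limma voom (-0.17).

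The 4 genes varied together across libraries, and they were not alone in this. In LD, TRIM72 was highest in pigs 12 and 5, and so were PSMD1 (28.6 and 29.1 CPM), PSMD11 (74.2 and 81.4 CPM) and PSMC2 (247 and 296 CPM). PSME1, in contrast, was lowest in pig 12, at 16.4 CPM. How many of all genes moved with TRIM72 was not tested. The S library of PL pig 14 had the highest TRIM72, FBXO31 and UBE2O values of all 32 libraries, 83.7, 79.9 and 26.8 CPM, whereas its LD library had 6.89, 8.798 and 1.28 CPM. The LD library of PUL pig 5 had 47.9, 55.6 and 23.5 CPM and its S library 20.7, 14.3 and 2.50 CPM. In both pigs the other muscle had lower values, and the labels of pig 14 carry a doubt, because the residual levels of all genes in its LD and S libraries had a correlation of -0.52. This correlation was also low in most other PL pigs, with a median of 0.11 over the pigs of PL. Across the 16 pigs, r between TRIM72 and FBXO31 was 0.92 in LD (rho 0.95) and 0.96 in S (rho 0.95), and permutation p was 1e-05 for each of these values, the smallest that 100000 permutations can give. Between TRIM72 and UBE2O, r was 0.81 in LD (permutation p = 1.20e-04; rho 0.79, permutation p = 4.10e-04) and 0.91 in S (permutation p = 1e-05; rho 0.82, permutation p = 2.80e-04). Between TRIM72 and FBXO40, r was 0.75 in LD (permutation p = 7.00e-04; rho 0.68, permutation p = 0.00528) and 0.79 in S (permutation p = 2.80e-04; rho 0.64, permutation p = 0.00925). These genes were picked because their values moved together, so the p values describe these libraries and are no independent evidence, and over the family of 7 relations the adjusted p of r was at most 8.17e-04 for the 6 relations between genes. Without the 2 pigs farthest from the median of TRIM72, r with FBXO31, UBE2O and FBXO40 was 0.91, 0.85 and 0.71 in LD and 0.94, 0.80 and 0.56 in S, and within each breed it was between 0.71 and 0.99. The TRIM72 level in LD and in S of the same pig had an r of 0.09 (permutation p = 0.732) and a rho of 0.27 (permutation p = 0.311).

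**Figure D5:**
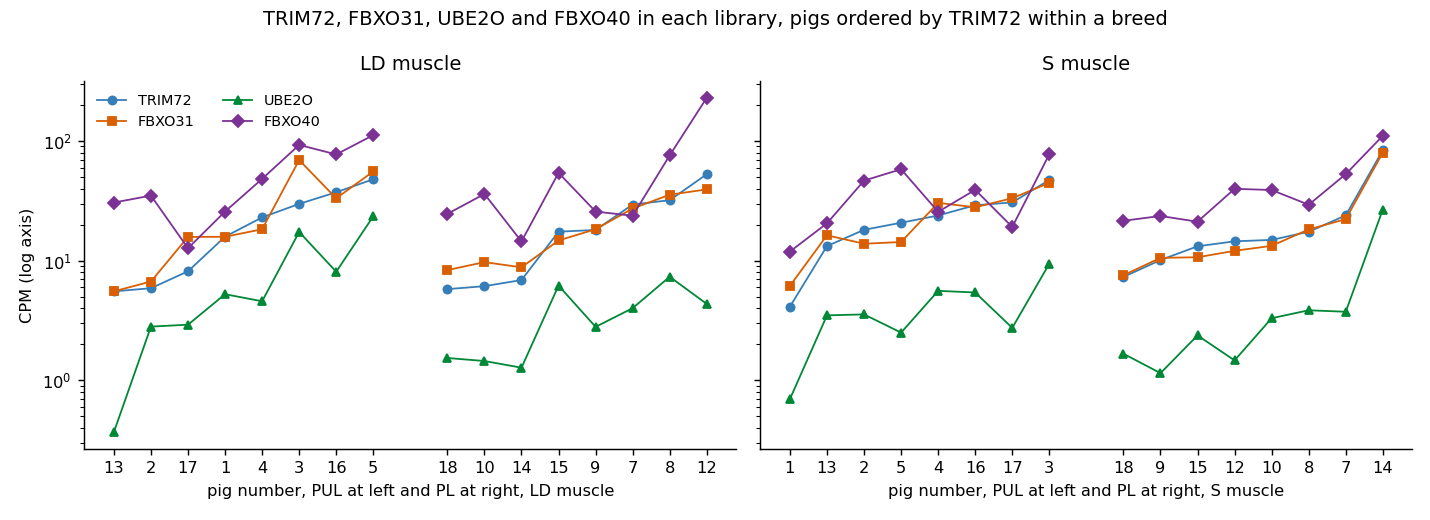
The vertical axis gives CPM on a log axis for TRIM72, FBXO31, UBE2O and FBXO40, and the horizontal axis gives the pigs of PUL (left run) and PL (right run), ordered by TRIM72 within a breed, for LD and for S. The lines of the 4 genes mostly climb together, from 4.13 to 83.7 CPM of TRIM72, and the order of the pigs differs between LD and S.

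TRIM72 was also set against marker lists and library scale, and no relation passed the adjustment. In S, TRIM72 had an r of 0.72 with the mean log2 level of the 2 measured skeletal muscle markers (rho 0.68, permutation p of r = 0.00246 and of rho = 0.00519). Of these markers, TNNT1 is also in the slow fibre list, so their mean log2 level does not measure muscle content alone. The LD library of PL pig 7 had their highest sum, 153647 CPM, but their lowest mean log2 level, 10.95. With the slow fibre list, r was 0.52 in S (rho 0.54, permutation p of r = 0.0451 and of rho = 0.0330, adjusted p of r = 0.213) and 0.0043 in LD. In LD, TRIM72 had an r of -0.65 with the 8 measured leukocyte genes (rho -0.61, permutation p of r = 0.00593 and of rho = 0.0143). Over the 22 relations with marker lists, the lowest adjusted p was 0.0541 for r and 0.114 for rho. Within PUL and PL, r was 0.62 and 0.81 for the muscle markers in S and -0.64 and -0.67 for the leukocyte genes in LD, and without the 2 farthest pigs it was 0.74 and -0.73. With the TMM factor of a library, r was -0.43 in LD (permutation p = 0.0993; rho -0.43, permutation p = 0.0971) and -0.42 in S (permutation p = 0.106; rho -0.34, permutation p = 0.194), with adjusted p of at least 0.213 over 4 relations. The part of tissue make-up and of library scale in the spread of these genes was not tested.

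The rest of the pathway was measured with 6 lists of genes, and no gene of any list was called in any comparison. The genes of these lists named below fall outside the naming rule and are not all of those with an unadjusted p under 0.05. Over all genes tested, 7.15% in LD and 11.7% in S had such a p between the breeds. In the list of ubiquitin precursors and E1 enzymes, with 9 genes tested, the median log2 fold change between the breeds was 0.031 in LD and 0.14 in S. UBA7, the E1 of ISG15, had -0.89 in LD (adjusted p = 0.555), and in S UBB, a polyubiquitin gene, had -0.38 (adjusted p = 0.314) and UBA3, a part of the E1 of NEDD8, had 0.24 (adjusted p = 0.421). In the core of the cullin ligases, with 19 genes tested in LD and 18 in S, the median log2 fold change between the breeds was 0.024 in LD and 0.087 in S. Of the 13 tested assembly factors and cofactors of the proteasome, the median was -0.17 in LD and -0.14 in S. VCP, the ATPase that extracts tagged proteins, had -0.33 in LD (adjusted p = 0.663), and UBQLN1, a shuttle to the proteasome, had -0.29 (adjusted p = 0.663). Among 16 other muscle ligases, 3 had an unadjusted p under 0.05 in S, all with lower estimates in PL, and 0 in LD. Of these, KLHL40, a cullin adaptor of the thin filament, had -0.65 in S (adjusted p = 0.222). The list of 22 deubiquitinases includes PSMD14, which is also 1 of the proteasome genes above. In it, 1 gene in LD and 2 in S had an unadjusted p under 0.05, all with higher estimates in PL. USP15 had log2 fold changes of 0.35 in LD and 0.43 in S (adjusted p = 0.555 and 0.241). In the list of the atrophy programme, with 17 genes tested, the median was -0.066 in LD and -0.20 in S. SQSTM1, the autophagy receptor p62, had -0.46 in LD and -0.35 in S (adjusted p = 0.520 and 0.372). In S, the genes with an unadjusted p under 0.05 were SQSTM1, FKBP5, a cochaperone of the glucocorticoid receptor (-1.61), and CAPN3, the muscle calpain (-0.40), with lower estimates in PL, and IGF1, a growth factor (0.76), and NR3C1, the glucocorticoid receptor (0.52), with higher ones, at adjusted p values of 0.316 to 0.399.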

How the data were processed

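Total RNA from 32 muscle samples was depleted of ribosomal RNA, made into libraries with a kit that does not keep strand, and sequenced from a single end. Per the methods and the processing notes, the authors removed adapters and reads under 36 bases or under quality 20 with Flexbar, aligned the rest with Bowtie 2 to the Sscrofa10.2 build, and deposited expected counts per gene estimated with RSEM, which divides reads shared by similar genes. CASAVA 1.8.2 is listed as the base caller's package, and the versions of the other programs are not given in the sources used here. The isoform table was not used, because it does not pair isoforms with genes.

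Expected counts were rounded and tested with edgeR 4.0.16 in R 4.3.3, with TMM factors, edgeR's filter on low counts, the quasi-likelihood test and Benjamini-Hochberg adjustment over all genes tested. A gene was called at an adjusted p at or under 0.05 and a fold change of at least 1.3. Breeds were compared within a muscle (PL over PUL), with the breed taken from the labels. The labels also class PUL as high and PL as low in shear force, the reverse of the study's text, and nothing measured here checks the breed of a library. The muscle difference (S over LD) within each breed, and its difference between breeds (PL minus PUL), came from 1 model of the 32 libraries in which the pig was the block, since the labels number the pig of each library. The residual correlation between LD and S of a pig ran from 0.044 to 0.71 in PUL and from -0.52, in pig 14, to 0.65 in PL. The medians were 0.43 in PUL and 0.11 in PL. Between different pigs of the breeds that share a replicate number, the medians were 0.31 in LD and -0.056 in S. These values thus give little sign of the pairing of muscles in PL, which rests on the labels. The scripts were tested on simulated counts. DESeq2 1.42.0, limma 3.58.1 and the other alternatives are given in the closing section. The labels name separate animals as replicates, and no pair of libraries of the same group agreed within sampling noise, the smallest chi-square being 35.5 for each degree of freedom. Correlations used 100000 permutations, two-sided.

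Symbols came from a table of gene names, and 11804 of 25322 IDs had one. Family members without a paired ID, such as PSMB5, PSMB10, PSMC4, TRIM54, UBE2B, UBE2D1, UBE2D3, UBE2G1, UBE2L3 and UBE2S, were not analysed here, nor were promoters. The members and gene lists were chosen with earlier results of these data known. The text names 34 genes fixed as a list (24 of them in the table), the 5 genes with the smallest p in each comparison (fewer than 5 being called), the gene of each class with the smallest p, and genes said to have been named after their values were seen. It also names some genes of the other pathway lists, which no rule fixed. Intervals and p-values of the breed comparisons cover the spread between pigs. Those of the muscle differences and of their difference between breeds, with the pig as a block, cover how the S over LD difference varied from pig to pig. The libraries' totals of 8821259 to 24761846 counts leave genes under about 1 CPM with few counts.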

Additional observations from a re-analysis of the deposited data

Results flagged for a closer look

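In 152 groups of 8 libraries (38 named genes in 4 groups), 25 had a highest or lowest library whose gap to the next exceeded the 95% critical value of Dixon's ratio, and chance alone gives about 1 in 20 groups of normal values. The share was 16.4%, against 13.4% of the 46252 groups of all 11563 genes tested. They involved 19 genes, and PL pig 14 held 7 and PUL pig 5 held 6 of the 25 outlying libraries. How often these pigs were outlying over all genes was not counted, so whether these counts are particular to the genes described here cannot be said.

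In S of PL, pig 14 had the highest values of TRIM72 (83.7 CPM), UBE2O (26.8 CPM), FBXO40 (110.6 CPM), PSMD11 (56.3 CPM) and TRIM21 (3.91 CPM) and the lowest of UBE2J2 (9.38 CPM). In LD of PL, the same pig had the highest TRIM47 value, 26.8 CPM. In S of PUL, pig 5 had the highest values of UBE2L6 (75.1 CPM), FBXO21 (34.8 CPM), TRIM34 (4.95 CPM), PSMB9 (4.63 CPM) and TRIM21 (4.03 CPM), and in LD its UBE2L6 value was 32.4 CPM.

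Of the other pigs of PL, pig 12 had the highest FBXO40 (229.8 CPM) and TRIM23 (12.1 CPM) in LD, pig 18 had the highest FBXL4 (52.4 CPM) and PSME1 (61.7 CPM) and the lowest PSMD5 (1.43 CPM) in S, and pig 15 had the highest TRIM47 (24.2 CPM) in S. Of the other pigs of PUL, pig 13 had the highest PSMA5 (128.2 CPM) and PSME2 (73.7 CPM) in LD and UBE2C (1.67 CPM) in S, pig 2 had the highest FBXL4 in LD (47.6 CPM), pig 3 the highest TRIM63 in S (522 CPM) and pig 17 the highest TRIM47 in S (26.1 CPM).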

How the results depend on the processing

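None of the genes was called in any of the 117 combinations of comparison and alternative, which changed the scaling, the filter, the test, the samples or the covariates or left out 1 pig at a time (0 in the lowest and 0 in the highest). Of 4418 values of the 38 named genes, 310 changed sign. Values that were past their standard error and changed sign were the following. In LD, PSME1 went from 0.22 to -0.024 with the hepatocyte covariate and to -0.21 without PUL pigs 1 to 5, and TRIM13 from -0.46 to 0.079 and 0.13. In S, TRIM13 went from -0.29 to 0.073 and 0.32, and with the covariate TRIM34 went from -0.65 to 0.057 and UBE2L6 from -0.93 to 0.19. The difference of the muscle differences of PSMB7 went from -0.23 to 0.0084 with scaling by library size alone. The cause was not tested. Replicate numbers are shared by different pigs of the 2 breeds, whose residuals correlated from -0.30 to 0.56 in LD and from -0.31 to 0.20 in S, and a fit with the number as a replicate block called 0 genes in LD and 0 in S. Without the pig as a block, the muscle comparisons and the difference of differences also called 0. Over all genes, DESeq2 called 19 in LD, 103 in S and 79 between muscles in PUL, where edgeR's quasi-likelihood test called 0, 0 and 3, and edgeR's exact test called 13 in LD and 56 in S. Low counts limit PSMB8, PSMB9, UBE2C, UBE2T, TRIM21, TRIM25 and TRIM34.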
